A study of Mus musculus with 6 samples.

Results

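The genes described here encode the signals by which double-positive thymocytes select invariant natural killer T (iNKT) cells: the SLAM family receptors Slamf1, Slamf6, Ly9, Cd84, Slamf7 and Cd48, the adaptor SAP (Sh2d1a), the kinase Fyn and the antigen-presenting molecule CD1d (Cd1d1). They were chosen by name, and all 9 were found among the 16448 genes of the authors' deposited comparison table. RNA-seq had been performed on CD4+CD8+ double-positive thymocytes sorted by flow cytometry from C57BL/6 mice. One group carried Mettl14fl/fl and the CD4-Cre transgene (KO, 3 libraries), and the other consisted of littermates labelled WT (3 libraries). It is not stated whether the WT mice carried the floxed alleles, and age and sex are not labelled. CD4-Cre is expressed in T lineage cells from about the double-positive stage, which is the stage sorted here. Separate mice per library are not stated either, so a p-value here reflects the variation among libraries, which may be technical in part.

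SLAM receptors are surface proteins of haematopoietic cells, and most of them bind the same receptor on a neighbouring cell. Their cytoplasmic tails recruit SAP, which in turn recruits and activates Fyn. In the mouse thymus, a double-positive cell presents lipids on CD1d to the T cell receptor of another double-positive cell, and SLAM receptor contacts between the same cells give the second signal through SAP and Fyn that the iNKT lineage needs. Mettl14 encodes a subunit of the complex that places N6-methyladenosine on RNA.

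Gene counts totalled 29717056 to 32334325 per KO library, against 29500254 to 33377056 per WT library. WT replicate 1 differed most from the other libraries of its group over the whole table, with chi-square statistics of 41.0 and 56.3 per degree of freedom, against 17.3 to 28.4 for the other pairs within a group, and member values whose sign turned without it are given as such. Mettl14 had 42.2, 40.3 and 36.4 CPM (read counts relative to library size, scaled by TMM) in KO replicates 1, 2 and 3, against 52.0, 58.8 and 55.8 CPM in WT replicates 1, 2 and 3. The KO libraries were all below the WT libraries, with a log2 fold change (KO minus WT, as throughout) of -0.49 (SE 0.086) and an adjusted p of 0.289 with edgeR. The adjusted p for Mettl14 was 0.0043 with DESeq2, at most 0.861 in the other alternative settings, and 0.0040 in the authors' deposited table, whose fit carries a replicate term. The summed CPM of 8 double-positive markers, among them Cd4, Cd8a and Rag1, was 14453 to 15281 in KO libraries and 13674 to 15422 in WT libraries. The 6 markers of mature thymocytes summed to 266 to 296 CPM in KO and 269.5 to 277 CPM in WT, the 8 of NKT, NK and innate lymphocytes to 42.4 to 52.2 CPM in KO and 28.7 to 44.1 CPM in WT, and the 7 of stromal and red cells to 149 to 159.6 CPM in KO and 153 to 179.6 CPM in WT. Zbtb16, the defining transcription factor of NKT cells, had 0 to 1 counts per KO library and 0 to 2 per WT library.

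Promoter sequences are shown for 3 members whose levels vary differently across the libraries: Slamf1 and Slamf6, each the other's nearest member in pattern, and Cd48, the least like both. Each is the 250 bases upstream of the RefSeq start on GRCm38.p6, 5′ to 3′ on the + strand of chromosome 1. Capitals mark every match, on either strand, to an E-box (CANNTG, the core bound by E proteins such as those encoded by Tcf3 and Tcf12) or to the MYB core (AACNG).
Slamf1, chr1:171766882-171767131: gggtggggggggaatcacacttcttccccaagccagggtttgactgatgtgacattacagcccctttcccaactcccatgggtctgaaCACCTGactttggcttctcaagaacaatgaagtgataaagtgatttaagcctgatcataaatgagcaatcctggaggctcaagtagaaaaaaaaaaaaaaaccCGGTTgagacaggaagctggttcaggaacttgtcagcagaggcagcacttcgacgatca
Slamf6, chr1:171917212-171917461: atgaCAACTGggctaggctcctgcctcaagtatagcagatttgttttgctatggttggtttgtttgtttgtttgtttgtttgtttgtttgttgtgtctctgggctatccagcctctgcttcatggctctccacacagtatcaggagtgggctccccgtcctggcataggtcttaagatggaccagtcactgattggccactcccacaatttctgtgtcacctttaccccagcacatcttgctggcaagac
Cd48, chr1:171681742-171681991: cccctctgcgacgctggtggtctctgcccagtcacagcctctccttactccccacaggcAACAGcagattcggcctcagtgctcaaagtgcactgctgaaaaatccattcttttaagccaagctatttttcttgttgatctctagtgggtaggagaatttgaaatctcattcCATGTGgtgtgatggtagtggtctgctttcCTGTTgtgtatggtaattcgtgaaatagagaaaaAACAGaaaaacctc
The Slamf1 window held 1 E-box and 1 separate MYB core, while in the Slamf6 window 1 E-box contained the MYB core. The Cd48 window held 1 E-box and 3 MYB cores. An E-box was present in 66.2% and a MYB core in 74.1% of 32536 promoter windows of this length, so neither sets these genes apart, and a match is a description and not a site. In the table of promoters, 6 of the 9 members were matched.

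Among the 9 members, 8 passed the filter on low counts and Slamf7 did not. None of the 8 was called between KO and WT at an adjusted p under 0.05 with edgeR's quasi-likelihood test, against 0.0383% of all 13039 genes tested (5 genes, 1 higher and 4 lower in KO). DESeq2 and limma-voom also called 0 members, against 0.678% and 0.0537% of the genes each tested, and 0 of the 9 passed in the authors' deposited table, against 0.762%. At an unadjusted p under 0.05 the count was again 0 of 8, against 6.72% of all genes. The log2 fold changes ran from -0.14 to 0.13, 4 of the 8 were above 0, and their median was 0.014 (-0.0089 with upper-quartile scaling), against -0.0040 for all genes tested. In 0 of the 8 did the KO and WT libraries fall apart without overlap, against 12.5% of all genes (6.59% with KO higher and 5.95% with KO lower).

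**Figure D1:**
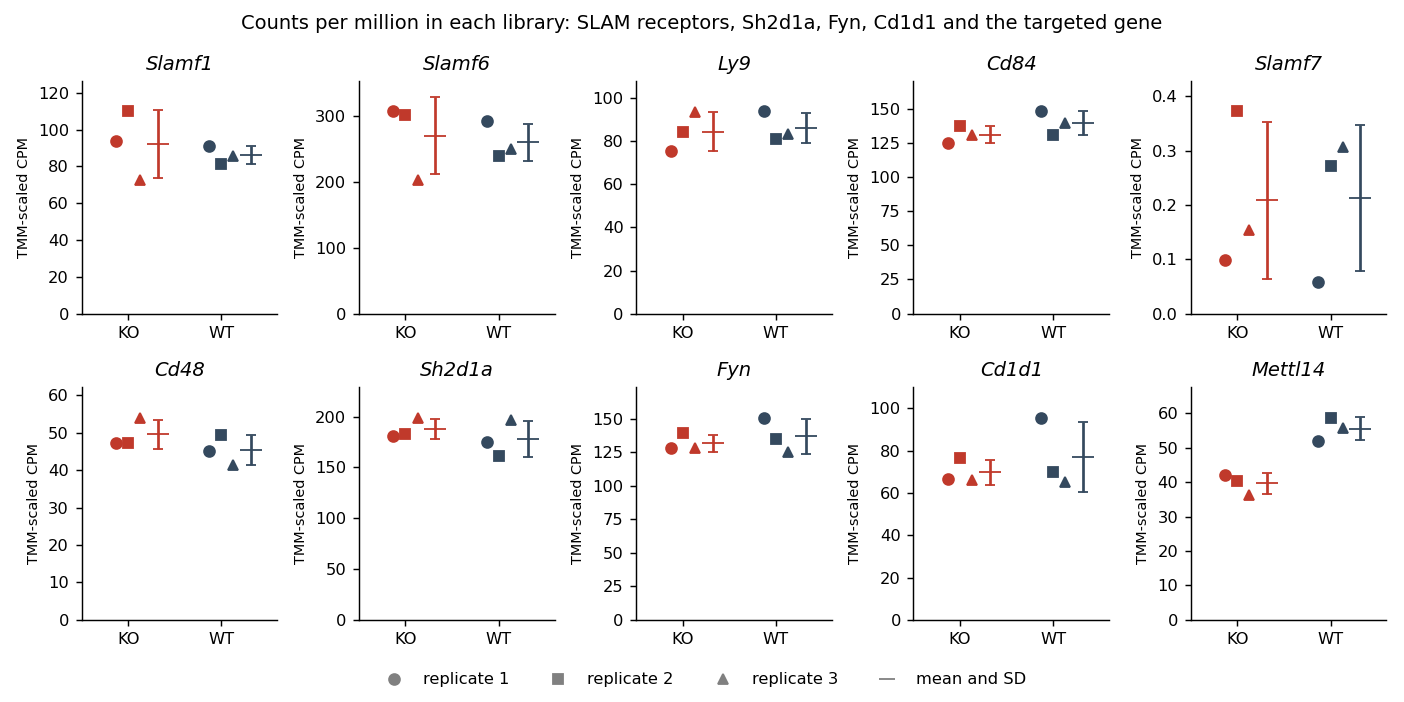
TMM-scaled CPM of the 9 members and of Mettl14 in each library, KO left and WT right, each panel with its own axis from 0; symbols mark replicate numbers and bars the mean and SD (n = 3). KO and WT libraries overlap for all 9 members, whereas for Mettl14 all 3 KO libraries lie below the WT libraries.

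Slamf1 (SLAM, CD150) and Slamf6 (Ly108) are the receptors whose combined disruption severely reduces iNKT cells in mice. Slamf1 (chromosome 1, 171767127 to 171801184 on mm10, + strand) had 94.1, 109.9 and 72.7 CPM in KO replicates 1, 2 and 3, against 91.0, 81.2 and 85.9 CPM in WT replicates 1, 2 and 3. The 2 highest values and the lowest value were all KO libraries, with the WT libraries between them and means of 92.2 ± 18.7 CPM in KO and 86.0 ± 4.93 CPM in WT (SD, n = 3 each). KO against WT gave a log2 fold change of 0.10 (SE 0.14, adjusted p = 0.898), and its 95% interval ran from a difference of -14.5% to one of 34.3%. Leaving out KO replicate 3 gave a log2 fold change of 0.25, with an unadjusted p of 0.0447 and an adjusted p of 0.740 (0.572 to 0.999 over the alternatives), and leaving out KO replicate 2 gave -0.037. Slamf1 without KO replicate 3 was the single case, over the 8 members and 14 alternative settings, of an unadjusted p under 0.05.

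Slamf6 (171917515 to 171953170, + strand) had 307, 302 and 202 CPM in KO replicates 1, 2 and 3, against 292, 239 and 249.7 CPM in WT replicates 1, 2 and 3. As for Slamf1, KO replicate 3 was the lowest of all libraries and KO replicates 1 and 2 were the highest. The log2 fold change of 0.055 (SE 0.16, adjusted p = 0.957) had a 95% interval from -19.7% to 34.4%. Its sign turned when KO replicate 1 (-0.044), KO replicate 2 (-0.022) or WT replicate 2 (-0.0022) was left out.

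The spread of these receptors was wider than that of most genes. The ratio of the highest to the lowest library was 1.52 for Slamf6 and 1.51 for Slamf1, above the ratio of 83.4% and 83.1% of the 9034 tested genes averaging 3 or more in log2 CPM, whose median ratio was 1.25. The ratio was 1.46 for Cd1d1 and 1.30 for Cd48, and lay between 1.19 and 1.24 for Cd84, Fyn, Sh2d1a and Ly9. Slamf6 counts per Slamf1 count stayed within 2.74 to 3.27 in KO libraries and 2.91 to 3.21 in WT libraries, and between KO replicates 1 and 2 Slamf1 was higher in replicate 2 while Slamf6 was slightly lower. As a measure of likeness, the root mean square difference of log2 CPM, centred on each gene's mean over the 6 libraries, was 0.095 between Slamf1 and Slamf6, and each was the other's nearest member. It was 0.26 between Slamf1 and Cd48 and 0.29 between Slamf6 and Cd48. Cd84 and Fyn were also each other's nearest members and were closer, at 0.070. Of 9033 genes compared, 27 lay closer to Slamf1 than Slamf6 did, and 16 lay closer to Slamf6 than Slamf1 did.

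A further gene at the Slamf6 locus, singled out after its values were seen, also had its lowest value in KO replicate 3. Gm37065 is annotated on the opposite strand (171909957 to 171919356) and spans the annotated start of Slamf6, with 0 shared exon bases. It had 52.4, 58.0 and 10.3 CPM in KO replicates 1, 2 and 3, against 33.7, 30.7 and 28.6 CPM in WT replicates 1, 2 and 3. KO replicate 3 was again the lowest library and KO replicates 1 and 2 the highest, and the spread was far larger than that of Slamf6. The log2 fold change of Gm37065 was 0.37 (SE 0.51, adjusted p = 0.896) with edgeR and -0.0073 with limma-voom. It was 0.83 (adjusted p = 0.142) without KO replicate 3, 0.022 without KO replicate 2 and 0.14 without KO replicate 1, 0.086 and 0.091 with the replicate blocks, and 0.070 in the authors' deposited table, so its size rests on single libraries. No source used here gives the strand setting of the counting, so reads of Slamf6 and of Gm37065 in their shared stretch cannot be told apart with certainty.

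**Figure D2:**
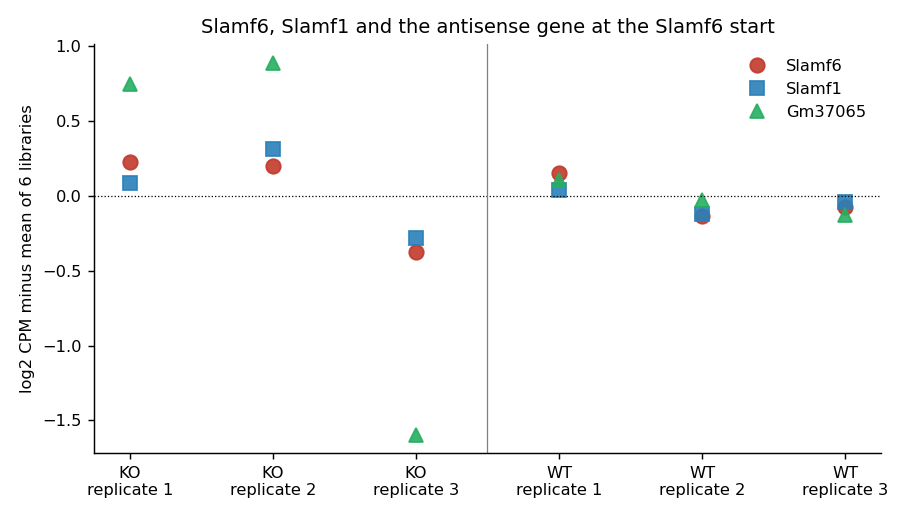
Log2 CPM of Slamf6, Slamf1 and Gm37065 in each library (KO replicates left, WT replicates right), minus each gene's mean over the 6 libraries. All 3 genes are lowest in KO replicate 3, at -0.37 for Slamf6, -0.28 for Slamf1 and -1.60 for Gm37065, and highest in KO replicate 1 or 2.

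Ly9 (CD229; 171588624 to 171607410, - strand) and Cd84 (171839697 to 171890718, + strand) are also self-binding receptors that recruit SAP. Ly9 had 75.5, 84.2 and 93.6 CPM in KO replicates 1, 2 and 3, against 93.9, 80.9 and 83.2 CPM in WT replicates 1, 2 and 3, so its highest and lowest libraries came one from each group. Its log2 fold change was -0.027 (SE 0.099, adjusted p = 0.967, 95% interval -16.3% to 15.2%), and turned positive without KO replicate 1 (0.052) or without WT replicate 1 (0.042). Cd84 had 125, 137 and 131 CPM in KO replicates 1, 2 and 3, against 148, 131 and 139 CPM in WT replicates 1, 2 and 3. WT replicates 1 and 3 were the highest libraries and KO replicate 1 the lowest, and KO replicate 2 lay above WT replicate 2. Cd84 had the smallest error of the receptors, with a log2 fold change of -0.090 (SE 0.073, adjusted p = 0.829) and a 95% interval from -16.4% to 5.57%, and was at -0.045 without WT replicate 1.

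Cd48 (171682009 to 171705258, + strand) has no cytoplasmic tail that binds SAP: it is held in the membrane by a lipid anchor and binds CD2 and 2B4, the product of Cd244a. Cd48 had 47.4, 47.4 and 54.1 CPM in KO replicates 1, 2 and 3, against 45.0, 49.4 and 41.5 CPM in WT replicates 1, 2 and 3. Its log2 fold change of 0.13 (SE 0.094, adjusted p = 0.805, 95% interval -5.84% to 27.2%) was the highest among the members, and WT replicate 2 lay above 2 of the 3 KO libraries. It stayed above 0 in the 14 alternative settings, at 0.0069 to 0.20.

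Slamf7 (CRACC; 171632403 to 171653035, - strand), a receptor of NK, B and plasma cells, had few counts in both groups. It had 3, 11 and 5 counts in KO replicates 1, 2 and 3, against 2, 9 and 9 counts in WT replicates 1, 2 and 3, and was not tested. The other receptors and adaptors of the family also had few counts, apart from Cd2. Cd244a had 1 to 16 counts per KO library and 6 to 12 per WT library, and each library had at most 4 counts of Slamf8, Slamf9, Sh2d1b1 (EAT-2) or Sh2d1b2, with Sh2d1b2 at 0 in all 6. Cd2, which shares the ligand CD48, was tested and had a log2 fold change of 0.019 (SE 0.070, adjusted p = 0.967), whose sign turned with upper-quartile scaling (-0.0045) and without KO replicate 1 (-0.014).

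Sh2d1a (chromosome X, 42502453 to 42529330, + strand) encodes SAP, the adaptor that couples these receptors to Fyn and without which mice and humans lack iNKT cells. It had 181, 183 and 199 CPM in KO replicates 1, 2 and 3, against 175, 161 and 197 CPM in WT replicates 1, 2 and 3. WT replicate 3 lay above 2 of the KO libraries. For Sh2d1a the log2 fold change was 0.077 (SE 0.088, adjusted p = 0.874) and the 95% interval ran from -8.32% to 21.4%. Left-out libraries gave 0.012 (without WT replicate 2) to 0.16 (without WT replicate 3). Sh2d1a shares 1465 exon bases with Tenm1 on the opposite strand. Tenm1 had 21.4, 8.70 and 11.0 CPM in KO replicates 1, 2 and 3, against 6.40, 9.68 and 9.08 CPM in WT replicates 1, 2 and 3. Over all libraries it had 2063 counts, against 34391 for Sh2d1a. Without a known strand setting, reads in the shared bases may have gone to either gene or to neither. How many did was not measured.

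Fyn (chromosome 10, 39368855 to 39565381, + strand), the Src family kinase that SAP recruits, had 128, 139 and 128 CPM in KO replicates 1, 2 and 3, against 151, 135 and 125 CPM in WT replicates 1, 2 and 3. WT libraries were both the highest and the lowest. Fyn had a log2 fold change of -0.058 (SE 0.085, adjusted p = 0.902, 95% interval -16.2% to 10.0%), and it was 0.017 without WT replicate 1.

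Cd1d1 (chromosome 3, 86995834 to 86999441, - strand) encodes the CD1d molecule that presents lipids in mice. It had 66.5, 76.6 and 66.3 CPM in KO replicates 1, 2 and 3, against 95.7, 69.9 and 65.4 CPM in WT replicates 1, 2 and 3. WT replicate 1, which was also the highest library for Ly9, Cd84, Fyn and Cd1d2, stood apart, and the other 5 libraries lay between 65.4 and 76.6 CPM. The log2 fold change of -0.14 (SE 0.15, adjusted p = 0.858, 95% interval -28.3% to 14.5%) became 0.044 without WT replicate 1. Cd1d2, a near copy that lies 6053 bases away, is identical to Cd1d1 at 95.8% of 1231 aligned transcript bases, with a longest identical run of 242 bases, so reads of the pair can be shared or lost as not unique. Cd1d2 had 425, 783 and 818 counts in KO replicates 1, 2 and 3, against 1711, 661 and 1023 counts in WT replicates 1, 2 and 3, with a log2 fold change of -0.67 (SE 0.35, adjusted p = 0.763), and WT replicate 1 was its highest library too. Without WT replicate 1 the value for Cd1d2 was -0.32, without KO replicate 1 -0.43, and without WT replicate 2 -0.95. Cd1d1 is 36.4 Mb from Mettl14 on chromosome 3.

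**Figure D3:**
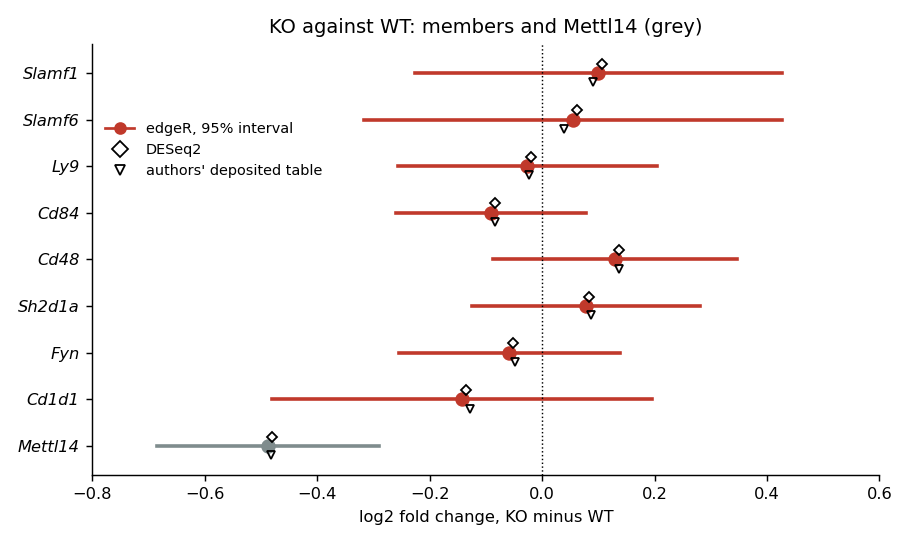
Log2 fold change, KO minus WT, of the 8 tested members and of Mettl14 (grey): circles and lines give edgeR's estimate and 95% interval, diamonds DESeq2 and triangles the authors' deposited table. All 8 member intervals span 0, while that of Mettl14 ends at -0.29.

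Levels were compared between members per length, as TPM (counts divided by length, then scaled to a common library total) over the union of annotated exons. The order was the same in both groups: Cd48, Sh2d1a, Fyn, Cd1d1, Ly9, Slamf6, Cd84, Slamf1 and Slamf7. Cd48 stood at 161 ± 13.4 TPM in KO and 149 ± 13.3 TPM in WT, Sh2d1a at 132 ± 7.78 TPM in KO and 126 ± 12.6 TPM in WT, and Fyn at 117 ± 5.86 TPM in KO and 123 ± 12.1 TPM in WT (SD, n = 3 each). Per union of exons, the 8 expressed members ran down to Slamf1 at 57.8 ± 11.6 TPM in KO and 54.7 ± 3.26 TPM in WT, while Slamf7 had 0.176 ± 0.122 TPM in KO and 0.182 ± 0.115 TPM in WT. In WT, neighbours in this order overlapped except that Cd84 lay above Slamf1 and Slamf1 above Slamf7; in KO, Cd48 also lay above Sh2d1a and Sh2d1a above Fyn. The order and the range depend on the length used: per longest coding transcript, Sh2d1a came first, at 450.1 ± 26.6 TPM in KO and 433 ± 40.6 TPM in WT, and Slamf6 second, at 138 ± 29.6 TPM in KO and 135 ± 16.2 TPM in WT.

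**Figure D4:**
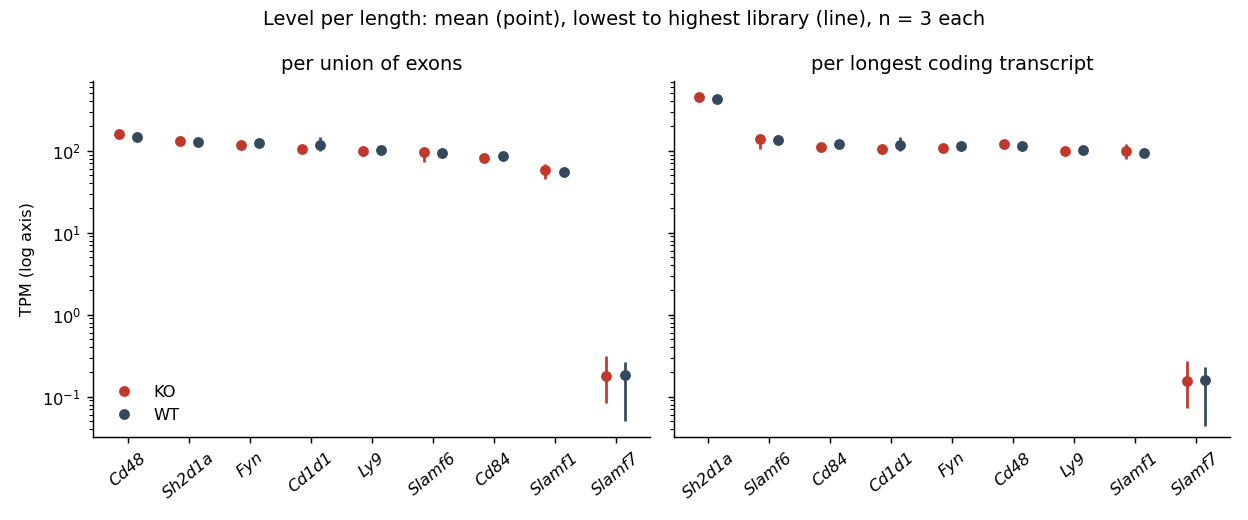
TPM of the 9 members on a log axis, in KO (left of each pair) and WT, per union of exons and per longest coding transcript; points are means and lines run from the lowest to the highest library (n = 3). Slamf7 is near 0.18 TPM per union of exons in both groups, and Sh2d1a moves from second to first place with the transcript length.

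The 6 SLAM members span 364.5 kb of chromosome 1. In a window reaching 0.5 Mb beyond the family genes on either side, 40 of 99 genes were tested. Of these 40, edgeR called 0, against 0.0383% of all genes. At an unadjusted p under 0.05 there were 2 of 40, against 6.72% of all genes: Fcer1g (log2 fold change 0.85) and Gm37981 (-1.99). Both had few counts. Fcer1g, also on the list of myeloid and dendritic markers, averaged 0.545 CPM in KO and 0.300 CPM in WT. Gm37981 averaged 0.160 CPM in KO and 0.654 CPM in WT. The 35 tested genes that are not members had a median log2 fold change of -0.039.

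Other genes of the pathway were described from 4 lists. None of the 60 tested genes of these lists was called by edgeR, against 0.0383% of all genes. Of the 22 kinases, phosphatases and adaptors beside and below SAP and Fyn, 20 had a log2 fold change above 0, as did 6375 of all 13039 genes, with a median of 0.066 against -0.0040 for all genes, and 5 had all KO libraries above all WT libraries, against 6.59% of all genes. Of the 8 double-positive markers, 7 were likewise above 0, with a median log2 fold change of 0.056. Being mostly above 0 is thus not particular to this list. Bcl10, which links protein kinase C theta to NF-kB downstream of SAP and Fyn, had 60.5, 57.7 and 63.3 CPM in KO replicates 1, 2 and 3, against 55.7, 49.2 and 53.8 CPM in WT replicates 1, 2 and 3. Its log2 fold change was 0.19 (SE 0.077, adjusted p = 0.725). The others with the lowest p were Pag1, a membrane adaptor that binds Csk, at 0.16 (SE 0.082), Ptpn6, the phosphatase SHP-1, at 0.22 (SE 0.11), and Was, a regulator of actin, at 0.11 (SE 0.059), with adjusted p-values of 0.763 to 0.769.

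The 23 tested genes of CD1d assembly, lipid loading and trafficking divided into 12 above 0 and 11 at or below, with a median of 0.010. B2m, the light chain that pairs with CD1d and with class I molecules, had 286, 391 and 276 CPM in KO replicates 1, 2 and 3, against 206, 238 and 209.9 CPM in WT replicates 1, 2 and 3. All KO libraries lay above all WT libraries, which held for 6.59% of all genes, and KO replicate 2 was the highest. The log2 fold change of B2m was 0.54 (SE 0.14), with an adjusted p of 0.540 with edgeR and 0.0288 with DESeq2 (0.0288 to 0.949 over the alternatives) and 0.0293 in the authors' deposited table, and leaving out single libraries gave 0.38 (without KO replicate 2) to 0.64 (without KO replicate 3). Tap1, a peptide transporter of the class I pathway, had a log2 fold change of 0.21 (SE 0.092, adjusted p = 0.747). Npc2, a lysosomal lipid carrier, had one of 0.18 (SE 0.080, adjusted p = 0.736). Gm2a, next in order of p, had one of -0.26 (SE 0.12, adjusted p = 0.750). All KO libraries of Gm2a lay below all WT libraries, which held for 5.95% of all genes.

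Cd74, the invariant chain that also directs CD1d through endosomes, had 2.42, 18.7 and 10.5 CPM in KO replicates 1, 2 and 3, against 2.69, 5.14 and 3.52 CPM in WT replicates 1, 2 and 3. KO replicates 2 and 3 were above all WT libraries and KO replicate 1 below them, and the log2 fold change was 1.48 (SE 0.62, adjusted p = 0.733), or 0.78 without KO replicate 2 and 1.95 without KO replicate 1. Cd74 is also expressed by B cells and dendritic cells, whose markers are given beside it. The 7 B cell markers summed to 798 to 844 CPM in KO and 795 to 845 CPM in WT, nearly all of it Ighm. Without Ighm and Cd79b, which double-positive cells also transcribe, the other 5 summed to 1.03, 9.24 and 4.24 CPM in KO replicates 1, 2 and 3, against 0.819, 1.69 and 0.990 CPM in WT replicates 1, 2 and 3. Pax5 had 0, 9 and 5 counts in KO replicates 1, 2 and 3, against 0, 1 and 0 in WT replicates 1, 2 and 3. The 10 myeloid and dendritic markers summed to 90.3 to 113 CPM in KO and 86.8 to 91.4 CPM in WT. Cd74 is 1 of them, and the other 9 summed to 87.8, 94.5 and 91.8 CPM in KO replicates 1, 2 and 3, against 84.1, 85.9 and 87.9 CPM in WT replicates 1, 2 and 3. Tyrobp, Fcer1g, H2-Ab1, Cst3 and, of the B cell markers, Cd79a had all KO libraries above all WT libraries, as did 6.59% of all genes. Tyrobp and Fcer1g had at most 25 counts per library. In the other myeloid, dendritic and B cell markers the groups overlapped. Itgam was lowest in KO replicate 3, and Itgax had 0, 5 and 5 counts in KO replicates 1, 2 and 3, against 2, 3 and 3 in WT. With edgeR, 3 of 6 tested myeloid and dendritic markers and 2 of 5 tested B cell markers had an unadjusted p under 0.05. The share of all genes was 6.72%, and Cd74 is 1 of the 3. None of these markers was called by edgeR, against 0.0383% of all genes. Their part in the values of Cd74 and B2m was not tested. In these bulk samples, more cells of a type and more RNA per cell cannot be told apart.

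Of the 14 tested transcription factors of double-positive cells and NKT precursors, 11 were above 0, with a median log2 fold change of 0.032. Ikzf1 (Ikaros) had a log2 fold change of 0.16 (SE 0.081, adjusted p = 0.767), Egr2, which is induced by the selecting signal and acts upstream of Zbtb16, one of 0.24 (SE 0.17, adjusted p = 0.802), Gata3 one of -0.10 (SE 0.077, adjusted p = 0.812) and Lef1 one of 0.062 (SE 0.078, adjusted p = 0.887).

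**Figure D5:**
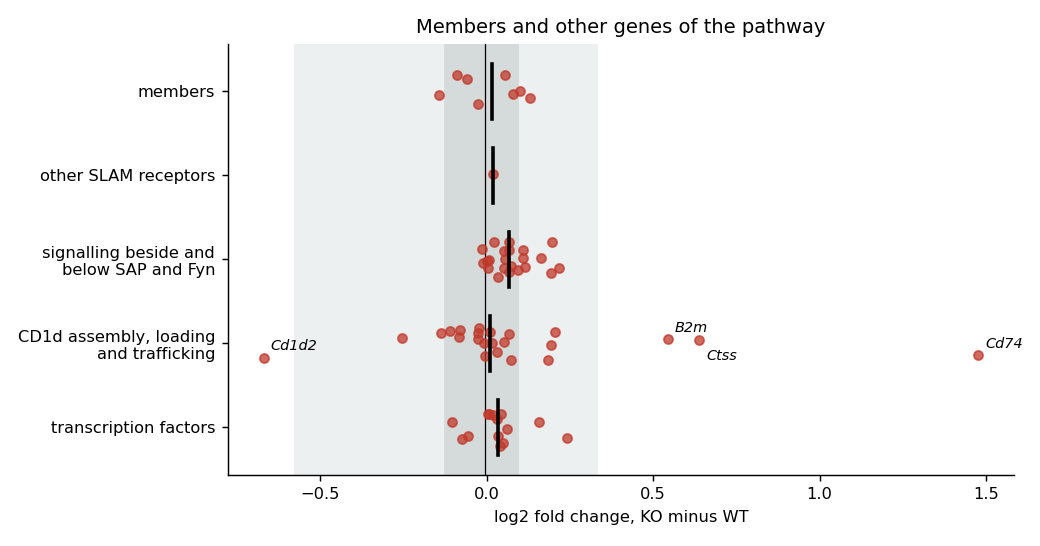
Log2 fold change, KO minus WT, of the tested members and of the other tested pathway genes by list; each point is a gene and black bars are list medians. The dark and light bands hold the middle 50% and 90% of all 13039 genes tested; B2m (0.54), Ctss (0.64), Cd74 (1.48) and Cd1d2 (-0.67) lie outside the light band, and the 8 members lie inside it.

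Among tested genes averaging 3 or more in log2 CPM (9033 besides the member itself), the one whose centred log2 CPM over the 6 libraries was most like Slamf6 was Uvssa on chromosome 5 (root mean square difference 0.047), which was also the most like Slamf1 (0.067). The most alike gene was Cacnb1 for Ly9 (0.026), Ilvbl for Cd84 (0.022) and Rcn1 for Cd48 (0.044). It was Rps27 for Sh2d1a (0.023), Acaa1a for Fyn (0.0099) and Myo1f for Cd1d1 (0.017). None of the 7 genes named lay on chromosome 1, where 6 of the members are.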

How the data were processed

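RNA from sorted double-positive thymocytes was sequenced from TruSeq libraries, per the labels' protocols, and the submitters' processing notes name mm10, Trimmomatic 0.33, STAR 2.5.2, HTSeq and DESeq2. The authors deposited raw counts per gene. The authors' deposited comparison table holds a normalized signal (counts divided by a size factor per library), log2 fold changes with standard errors, a test score, and p-values. The file is named as paired: of its 16448 fold changes, 15437 were within 0.001 of a DESeq2 fit with a block for replicate 3 against the other replicates, and 4064 of one on group only. No label says what that term stands for. No source used here gives the annotation, counting mode or strand setting. Unassigned reads (12.3% to 15.2% without a feature, 22.6% to 23.9% not unique) stayed out of library sizes.

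Counts were tested with edgeR 4.0.16 in R 4.3.3 (TMM, filterByExpr, quasi-likelihood, two-sided, group only, Benjamini-Hochberg over all genes tested, threshold 0.05). DESeq2 1.42.0 and limma-voom (limma 3.58.1) were alternatives, as were other scalings, no filter, left-out libraries and replicate blocks. TPM used exon unions of GENCODE M21, because the deposited gene length equalled the sum of all transcript lengths for 31017 of 42546 matched genes; the planned use of that length became an alternative. The tests were checked on simulated data. The members and lists were chosen with earlier results of these data known. Named were all members, Mettl14, the 4 genes of lowest p in each other list, every other SLAM family gene, and the gene most like each member. Gm2a was added because its KO and WT libraries did not overlap. Promoter sequences came from RefSeq (GRCm38.p6).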

Additional observations from a re-analysis of the deposited data

How the results depend on the processing

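None of the 8 tested members was called in any of the 14 alternatives. Of 112 alternative log2 fold changes of members, 8 changed sign, all when a library was left out. Over the left-out libraries the log2 fold change ran from -0.037 to 0.25 for Slamf1, -0.044 to 0.23 for Slamf6, -0.10 to 0.052 for Ly9, -0.13 to -0.045 for Cd84, 0.066 to 0.20 for Cd48, 0.012 to 0.16 for Sh2d1a, -0.11 to 0.017 for Fyn and -0.24 to 0.044 for Cd1d1, and from -0.014 to 0.071 for Cd2. Cd2 was at -0.0045 with upper-quartile scaling and Gm37065 at -0.0073 with limma-voom. The members' median lay between -0.040 and 0.056 over all 14.

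With under 1% of all genes called by each tool, a members' count of 0 says little about stability. Over the whole table the count was 5 with edgeR, 30 with no filter on low counts, 105 with DESeq2, and 4 to 23 when single libraries were left out (23 without WT replicate 3, 14 without KO replicate 2 and 8 without WT replicate 1). The pathway lists gained 1 call with DESeq2, B2m. The cause of these changes was not tested.

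The order of levels depends on the length: of the 9 places in WT, 2 were kept with CPM without length, 2 with the deposited normalized signal, 3 with the deposited gene length and 3 with the longest coding transcript.

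The labels state no pairing, so the unblocked fit was kept as planned. Same-numbered KO and WT libraries deviated from their group means with correlations of -0.34, -0.11 and 0.36 over 8997 genes. KO replicate 2 with WT replicate 1 gave 0.47, KO replicate 1 with WT replicate 2 gave 0.37, and the other pairs -0.48 to 0.12. The pairs at 0.47, 0.37 and 0.36 each lie within 1 level of the 2-level block, as do those at -0.34 and -0.11. Some variation was thus shared across the groups, and its source was not tested. With a replicate block, 5 genes and 0 members were called, as with the 2-level block that the deposited fit follows. The replicate block joins same-numbered libraries, at -0.34, -0.11 and 0.36, and so not the pairs at 0.47 and 0.37. No fit was blocked by the pairs at 0.47, 0.37 and 0.36. The sets of called genes were not compared between fits.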

Other observations

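Because CD1d pairs with the B2m product, their counts were also set against each other, a ratio chosen after the values were seen. Cd1d1 had 23.2, 19.6 and 24.0 counts per 100 B2m counts in KO replicates 1, 2 and 3, against 46.5, 29.4 and 31.2 in WT replicates 1, 2 and 3. The KO and WT ratios did not overlap, as B2m itself did not, so the ratio adds no separate evidence. An exact permutation test gave p = 0.1, the smallest value it can give with 3 libraries per group, and so cannot decide. The ratio of the KO mean to the WT mean was 0.624, and 0.574 to 0.736 when single libraries were left out.

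The letters GGACT, a common form of the sequence in which N6-methyladenosine is placed, occurred 1.40 times per kb in the longest coding transcript of Slamf6, 1.11 in that of Slamf1, 1.68 in that of Fyn and 1.76 in that of Slamf7. It was 0.804 for Ly9, 0.874 for Cd84, 0.843 for Cd48, 0.514 for Cd1d1 and 0 for Sh2d1a. The median over 11268 tested genes was 1.05 per kb. RNA methylation was not analysed here, and a match in letters does not show a methylated site.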
